A study of Homo sapiens with 21 samples.

Results

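The genes described here are 10 regulators of the G1 phase of the cell cycle in HCC1806, an established human breast cancer cell line of the triple-negative, basal-like kind. They are 6 inhibitors of cyclin-dependent kinases (CDKN1A, CDKN1B, CDKN1C, CDKN2B, CDKN2C and CDKN2D) and 4 cyclins of the G1 phase and its exit (CCND1, CCND2, CCND3 and CCNE1). They were chosen by name, and all 10 had a row among the 60668 gene identifiers of both deposited count tables. RNA was sequenced from 21 libraries in 7 groups of 3. The first table holds a control group (3xCTL), libraries labelled 3xSR and libraries labelled MYC-OE. The label 3xSR is read here as a triple line, meant to overexpress SRSF2, SRSF3 and SRSF7 together, with 3xCTL as its control. The second holds a single plasmid control (1xCtrl) and libraries titled 1xSRSF2, 1xSRSF3 and 1xSRSF7. These are labelled SRSF2-OE, SRSF3-OE and SRSF7-OE here, where OE stands for overexpression. The 5 groups other than the controls are called test groups here, because the gene a group is named for was not raised in each of them. SRSF2, SRSF3 and SRSF7 encode serine- and arginine-rich splicing factors, and MYC encodes a transcription factor. All groups shared 1 medium with serum and were scraped off the dish close to confluence. The vectors, their promoters, the number of clones and whether replicates were separate cultures are not given in the sources used here, so the p-values measure the spread between these samples, which may be technical. MYC-OE was compared with 3xCTL, which may not carry the same vector.

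Progression through G1 depends on cyclin-dependent kinases that are switched on by cyclins and held back by inhibitors. D-type cyclins activate CDK4 and CDK6, and E-type cyclins activate CDK2. Both kinds of kinase phosphorylate the retinoblastoma protein and so release E2F transcription factors, which drive genes of S phase. INK4 inhibitors (here CDKN2B, CDKN2C and CDKN2D) bind CDK4 and CDK6, whereas Cip/Kip inhibitors (CDKN1A, CDKN1B and CDKN1C) bind complexes of cyclin and kinase, CDK2 complexes above all. MYC is known to repress CDKN1A and CDKN2B, in part by binding ZBTB17 (Miz-1) at their promoters, and it is a known inducer of D- and E-type cyclin activity. The comparisons below ask how each inhibitor and cyclin stood in each test group against its own control.

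Total counts ran from 143269192 to 303323552 per library, so a level is limited by the 3 libraries of a group more than by counting error, except for CDKN1C and CCND2. Levels are given as CPM, the count scaled to a fixed library size after TMM scaling, within each table. Of the targeted genes, MYC was 1.86-fold higher in MYC-OE and 1.68-fold higher in the libraries labelled 3xSR. SRSF3 was 1.40-fold higher in SRSF3-OE and 1.24-fold in 3xSR, and SRSF7 was 1.20-fold higher in SRSF7-OE and 1.35-fold in 3xSR. These rises were not confined to the groups named for them: in the libraries labelled SRSF2-OE, SRSF3 was 1.23-fold (adjusted p = 0.00794) and SRSF7 1.18-fold higher (adjusted p = 0.00681), and MYC was 1.20-fold higher in SRSF3-OE and 1.21-fold in SRSF7-OE (adjusted p = 0.00406 and 0.00608). SRSF2 was not raised in the libraries that carry its name: 398.5 CPM ± 19.6 (SD, n = 3) in those labelled SRSF2-OE against 444.2 ± 31.5 in 1xCtrl (adjusted p = 0.098, edgeR's quasi-likelihood test with Benjamini-Hochberg adjustment). Those labelled 3xSR had 373.1 to 397.1 CPM against 390.6 to 424.2 in 3xCTL (adjusted p = 0.389). SRSF2 was lower than in the control in MYC-OE (1.39-fold, adjusted p = 2.32e-05) and in SRSF7-OE (1.30-fold, adjusted p = 0.0018). A gene-level count does not separate a transgene from the endogenous transcript. Replicate 2 of 1xCtrl stood apart: the chi-square per degree of freedom of its counts against the other 1xCtrl libraries was 193.8 and 275.1, against 26.2 between those. Replicate 2 of 3xCTL did so to a lesser degree (108.2 and 82.9, against 25.6 between the other 2), and without it 9204 genes in place of 6727 were called in 3xSR. Pairs of the other groups had 15.9 to 80.0. Basal breast epithelial markers were all present (8 of 8 at a mean of 1 CPM or more, 4349 to 5548 CPM in sum per library), whereas 0 of 4 blood markers (0.147 to 0.552 CPM in sum) and 0 of 3 endothelial markers (0.137 to 1.28) reached that level. General epithelial markers were all present too (5 of 5, 1822 to 3471 CPM in sum). Markers listed for hormone receptor positive luminal cells were present at a low level (4 of 5 at a mean of 1 CPM or more, 137.4 to 236.3 CPM in sum). Most of that sum was ERBB2, at 99.6 to 183.5 CPM, with ESR1, the estrogen receptor, at 6.49 to 11.5 and PGR, the progesterone receptor, at 0 to 1.46. Of 5 fibroblast markers, COL1A1 alone reached a mean of 1 CPM, at 5.46 to 15.7 CPM.

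CDKN1A, the inhibitor p21, was higher in every test group than in its control, by 1.36- to 2.15-fold. CDKN1A RNA was higher in 3xSR and MYC-OE, the groups in which MYC RNA was highest against its control. It was also higher in the libraries labelled SRSF2-OE (log2 fold change 1.10). There MYC was at 0.12 (adjusted p = 0.165 by edgeR's quasi-likelihood test). Whether MYC acts on CDKN1A here was not tested. CDKN1B (p27), the closest relative of CDKN1A among the expressed inhibitors, fell in MYC-OE and passed no test in the other 4 comparisons with a control. CDKN1C (p57) was nearly silent.

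CDKN1A (ENSG00000124762.13, chromosome 6, 36676460 to 36687339, GRCh38, plus strand) was measured at 18.4, 14.6 and 16.7 CPM in 3xCTL. The libraries labelled 3xSR had 35.8, 33.8 and 35.1 CPM, and the MYC-OE libraries 29.8, 29.5 and 29.0. Every library of both groups lay above every 3xCTL library, and the 3xSR range lay above the MYC-OE range. Among the libraries of the second set, those of 1xCtrl had 19.6, 22.7 and 20.1 CPM and SRSF7-OE 28.7, 28.7 and 27.6. The libraries labelled SRSF2-OE had 47.3, 43.5 and 43.1 CPM, and SRSF3-OE 45.4, 41.7 and 43.8. These groups overlapped each other, and both lay above SRSF7-OE, which lay above 1xCtrl in every library. An antisense gene, DINOL, shares 146 exon bases with CDKN1A but had 0 to 5 counts per library, against 2701 to 10794 for CDKN1A.

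The log2 fold change of CDKN1A was 1.08 (SE 0.0756) in 3xSR, with an adjusted p of 1.02e-06 by edgeR's quasi-likelihood test. It was 0.83 (SE 0.0752, adjusted p = 5.11e-06) in MYC-OE. Among the single lines it was 1.10 (SE 0.0693, adjusted p = 7.3e-07) for SRSF2-OE and 1.07 (SE 0.0692, adjusted p = 3.71e-07) for SRSF3-OE. SRSF7-OE gave the smallest value, 0.45 (SE 0.0686, adjusted p = 0.00114). These 5 calls held under every alternative tried. Replicate 2 of 1xCtrl was the highest of its group for CDKN1A. Between MYC-OE and 3xSR the log2 difference of CDKN1A was -0.24 (adjusted p = 0.024), a call lost when any of 5 single libraries was left out: 3xSR replicate 1 (adjusted p = 0.078) or 3 (0.0727), or MYC-OE replicate 1 (0.0574), 2 (0.0657) or 3 (0.0757).

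**Figure D1:**
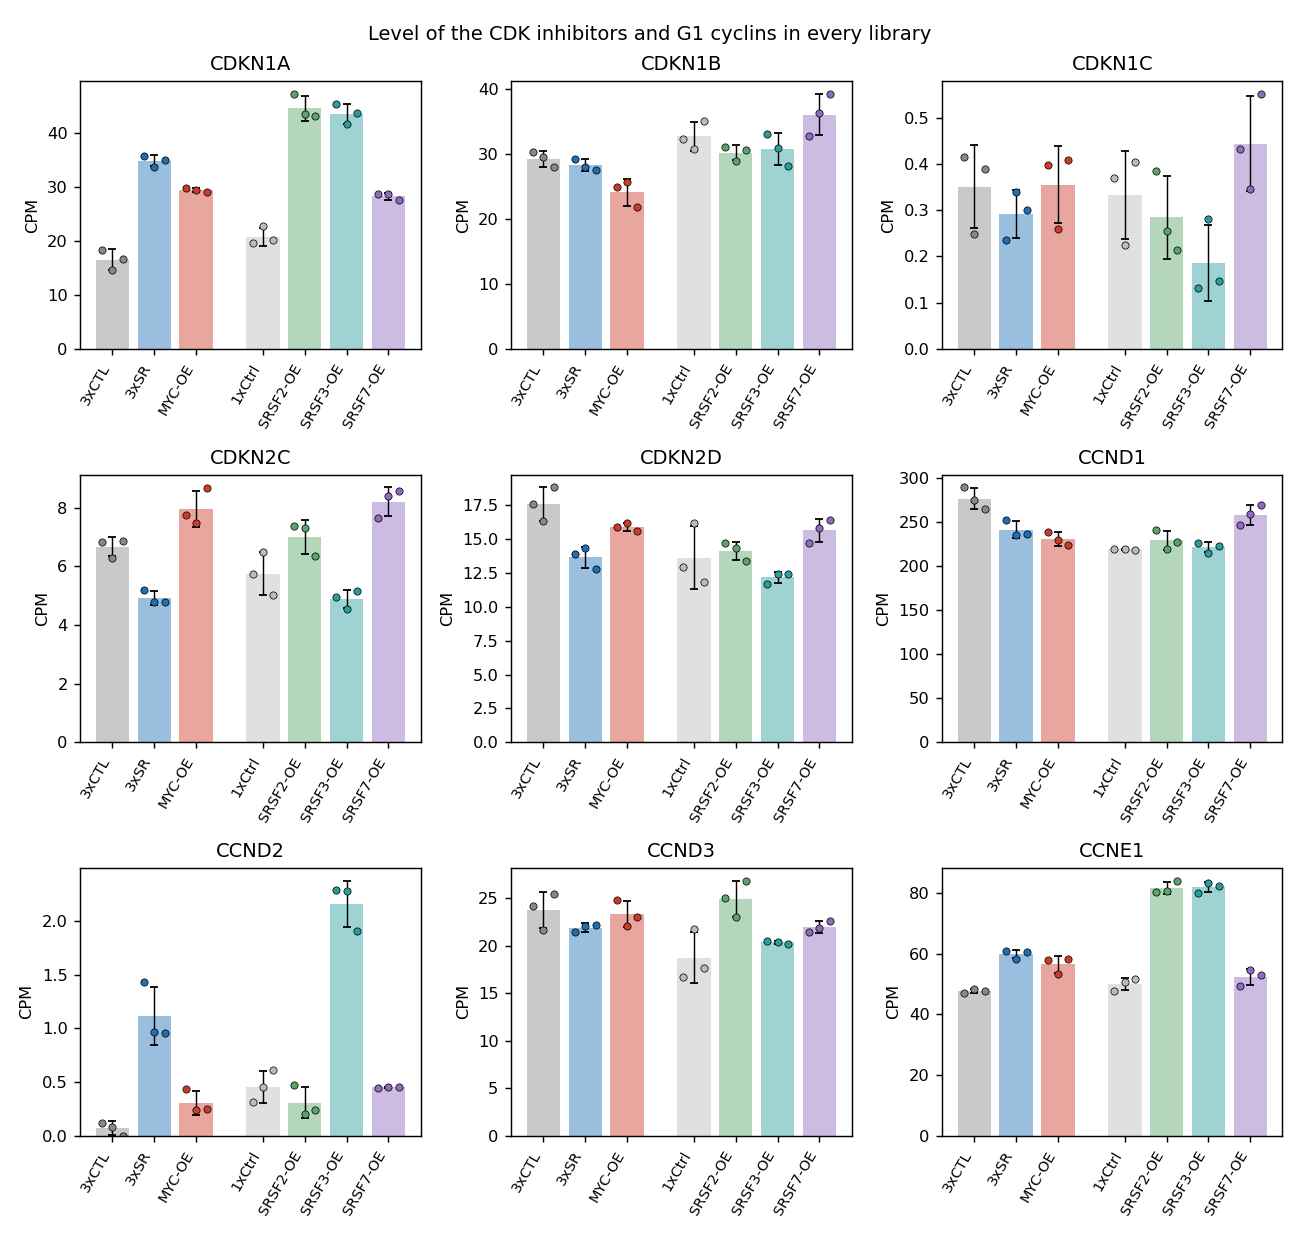
CPM of the 9 genes with counts in all 7 groups. Bars are group means, points are libraries and error bars are the SD of 3 libraries; each vertical axis starts at 0 and has its own scale. CDKN1A stands above its control in every test group, CCNE1 reaches 81.7 and 81.9 CPM in the groups labelled SRSF2-OE and SRSF3-OE, and CCND2 is highest in SRSF3-OE at 2.16 CPM.

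Sequence at a RefSeq start of CDKN1A is shown beside that of CCNE1, which also rose in 3xSR, MYC-OE, SRSF3-OE and the libraries labelled SRSF2-OE. CCNE1 passed no test in SRSF7-OE, where CDKN1A rose. Promoters of genes that move together can be compared for motifs. RefSeq windows from 250 bases before to 50 bases after an annotated start (GRCh38.p14) were at hand for 7 of the 10 genes, 11 windows in all. Both strands were searched for 3 motifs: the MYC E-box CACGTG, the GC box GGGCGG bound by SP1, and the E2F-like motif TTTNNCGC, with overlapping matches counted. Of 35116 windows of all genes, 7.26% held the E-box, 45.0% the GC box and 6.89% the E2F-like motif. The CDKN1A window held 4 GC boxes and the CCNE1 window 7, and neither held an E-box or E2F-like match. CDKN2C windows 1 and 3 held 1 E-box each, and no window of the other genes did. Each stretch printed runs from the start of a window to the first exon base of the gene inside it in GENCODE release 29. The CCNE1 and CDKN2C stretches end just before the annotated gene. The CDKN1A stretch lies within the annotated gene, downstream of its outermost start, and holds none of its exon bases. They are shown with GC boxes or E-boxes in capitals, on the plus strand, and are chr6:36678464-36678657 for CDKN1A (194 bases, 2 GC boxes), chr19:29811741-29811897 for CCNE1 (157 bases, 5 GC boxes) and chr1:50960495-50960744 for CDKN2C window 1 (250 bases, 1 E-box).
CDKN1A: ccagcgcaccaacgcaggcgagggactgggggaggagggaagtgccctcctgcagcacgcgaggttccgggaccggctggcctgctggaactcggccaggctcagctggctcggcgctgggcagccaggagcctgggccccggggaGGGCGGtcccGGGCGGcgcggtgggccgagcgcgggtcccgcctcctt
CCNE1: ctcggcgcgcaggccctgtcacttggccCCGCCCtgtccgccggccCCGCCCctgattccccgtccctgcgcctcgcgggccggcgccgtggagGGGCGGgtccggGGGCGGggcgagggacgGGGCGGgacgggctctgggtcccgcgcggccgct
CDKN2C: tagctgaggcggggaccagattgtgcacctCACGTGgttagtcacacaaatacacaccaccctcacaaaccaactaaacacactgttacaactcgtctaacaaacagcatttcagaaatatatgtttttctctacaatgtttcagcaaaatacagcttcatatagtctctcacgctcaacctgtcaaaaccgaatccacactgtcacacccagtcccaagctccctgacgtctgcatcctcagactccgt
The CDKN1A and CCNE1 stretches are rich in G and C (74.3% and 81.0% over the whole windows), while CDKN2C window 1 has 46.3% and no GC box. Such richness was not particular to CDKN1A and CCNE1. CDKN2C window 2 held 6 GC boxes at 71.3%, and CCND3 windows 2 and 3 held 4 and 5 at 73.7% and 72.3%. The remaining windows held 0 to 3 GC boxes, at 49.3% to 68.0%. A match describes letters in a window and was not tested as a binding site.

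CDKN1B (ENSG00000111276.11, chromosome 12, 12715058 to 12722371, plus strand) restrains CDK2 and is removed by the SKP2 ubiquitin ligase at the G1/S transition. It had 30.4, 29.5 and 28.0 CPM in 3xCTL, 29.3, 28.1 and 27.5 in 3xSR, and 25.0, 25.7 and 21.8 in MYC-OE. The MYC-OE libraries lay below all others of that table, and the other groups overlapped. In MYC-OE it fell by 0.28 on the log2 scale (SE 0.0680, adjusted p = 0.00761), a call kept under every alternative. In 3xSR the change was -0.05, with a 95% interval of -0.20 to 0.10. The single plasmid controls had 32.3, 30.8 and 35.1 CPM, and no single line differed from them past the threshold. The changes were -0.12 for the libraries labelled SRSF2-OE (95% interval -0.29 to 0.06), -0.09 for SRSF3-OE (-0.27 to 0.09) and 0.14 for SRSF7-OE (-0.04 to 0.32). Libraries labelled SRSF2-OE (31.1, 28.9 and 30.6 CPM) lay below those of SRSF7-OE (32.8, 36.3 and 39.2), at a log2 difference of -0.26 and an adjusted p of 0.0372. That call was lost without SRSF2-OE replicate 2 (adjusted p = 0.0909) or 3 (0.0534) or SRSF7-OE replicate 3 (0.12).

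CDKN1C (ENSG00000129757.13, chromosome 11, 2883213 to 2885773, minus strand), an imprinted inhibitor, had 26 to 175 counts per library, or 0.132 to 0.552 CPM. Its changes against the controls ran from -0.84 in SRSF3-OE (95% interval -1.61 to -0.07, adjusted p = 0.0979) to 0.42 in SRSF7-OE (-0.32 to 1.16), and none passed the threshold. Leaving out 1xCtrl replicate 2 took the SRSF3-OE change to -1.07 (adjusted p = 0.0359), and leaving out SRSF3-OE replicate 2 took it to -1.28 (adjusted p = 0.0217). Between the SRSF3-OE libraries (0.132, 0.281 and 0.147 CPM) and the SRSF7-OE libraries (0.433, 0.347 and 0.552) the groups did not overlap, and the log2 difference was -1.26 (adjusted p = 0.0135). That call was lost without SRSF3-OE replicate 1 (adjusted p = 0.0557) or 3 (0.0554), without SRSF7-OE replicate 3 (0.0565) and with each library's GC trend removed (0.0803).

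Divided by exon length, so that genes can be compared, CDKN1A made up 33.9% ± 2.44 (SD, n = 3) of Cip/Kip RNA in 3xCTL and CDKN1B 65.2% ± 2.64. In the libraries labelled 3xSR and MYC-OE the CDKN1A share was 52.9% ± 0.799 and 52.5% ± 1.82, so that p21 RNA was the larger part. In 1xCtrl its share was 36.7% ± 3.13. It reached 57.3% ± 0.966 for those labelled SRSF2-OE and 56.5% ± 1.95 for SRSF3-OE, with SRSF7-OE between them and the control at 41.7% ± 2.66. The summed level of the family, in CPM per kilobase, was 16.0 ± 0.888 in 3xCTL, 21.6 ± 0.556 in 3xSR and 18.4 ± 0.833 in MYC-OE. It was 18.6 ± 0.582 in 1xCtrl, 25.5 ± 1.09 and 25.3 ± 1.22 in the groups labelled SRSF2-OE and SRSF3-OE, and 22.3 ± 1.01 in SRSF7-OE. No library of a test group lay below the highest of its control.

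**Figure D2:**
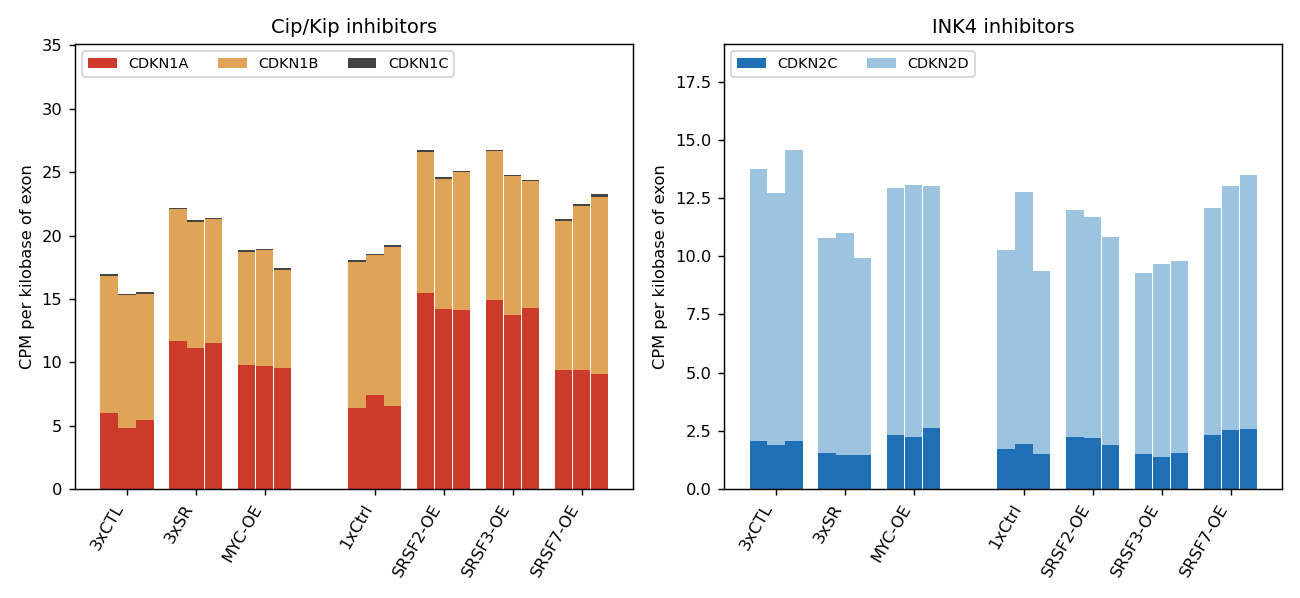
Level of the Cip/Kip inhibitors (left) and of the INK4 inhibitors with counts (right) in CPM per kilobase of exon. Each bar is 1 library, stacked by gene, and each vertical axis starts at 0. The CDKN1A part grows from 33.9% of Cip/Kip RNA in 3xCTL to over 52% in 3xSR and MYC-OE, and CDKN2D makes up most INK4 RNA in every library.

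The INK4 inhibitors moved less, and not in 1 direction. CDKN2C (p18) fell in the libraries labelled 3xSR and rose in MYC-OE and SRSF7-OE. CDKN2D (p19) fell in 3xSR and passed no test in the other 4 groups. CDKN2B (p15), which MYC is known to repress, could not be compared, because no library had a count.

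CDKN2C (ENSG00000123080.12, chromosome 1, 50960745 to 50974633, plus strand) had 6.84, 6.29 and 6.87 CPM in 3xCTL, 5.19, 4.79 and 4.79 in 3xSR, and 7.75, 7.47 and 8.66 in MYC-OE. The 3 groups did not overlap, with 3xSR lowest and MYC-OE highest. The log2 fold change was -0.44 (SE 0.0877, adjusted p = 0.00278) in 3xSR and 0.26 (SE 0.0871, adjusted p = 0.0384) in MYC-OE. The 3xSR call held under every alternative, while the MYC-OE call was lost under 8 of 14. Those 8 included the removal of 3xCTL replicate 1, 2 or 3 (adjusted p = 0.0668, 0.079 and 0.0595) or of MYC-OE replicate 1 or 3 (0.0704 and 0.159). Tested directly, MYC-OE was above 3xSR by 0.69 (adjusted p = 0.000118), under every alternative.

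Among the single lines and their control, CDKN2C had 5.74, 6.48 and 5.04 CPM in 1xCtrl and 7.66, 8.39 and 8.58 in SRSF7-OE, with no overlap. The libraries labelled SRSF2-OE had 7.37, 7.30 and 6.34 CPM and SRSF3-OE 4.96, 4.56 and 5.17, and both overlapped 1xCtrl. SRSF7-OE rose by 0.51 (SE 0.108, adjusted p = 0.00637). That call was lost without 1xCtrl replicate 1 (adjusted p = 0.0536) or SRSF7-OE replicate 3 (0.0525). The libraries labelled SRSF2-OE were at 0.28 (adjusted p = 0.0775), or 0.37 without 1xCtrl replicate 2 (adjusted p = 0.0175), and SRSF3-OE was at -0.23 (adjusted p = 0.131), or -0.37 without 1xCtrl replicate 3 (adjusted p = 0.0293). SRSF3-OE differed from SRSF7-OE by -0.75 (adjusted p = 0.000154), and the SRSF2-OE-labelled libraries lay above SRSF3-OE by 0.52 (adjusted p = 0.00344), both under every alternative.

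CDKN2D (ENSG00000129355.7, chromosome 19, 10566462 to 10569059, minus strand) had 17.6, 16.3 and 18.8 CPM in 3xCTL against 13.9, 14.3 and 12.8 in 3xSR and 15.9, 16.2 and 15.6 in MYC-OE. The 3xSR libraries were lowest and no groups overlapped. The log2 fold change in 3xSR was -0.36 (SE 0.0720, adjusted p = 0.00261), but -0.14 (adjusted p = 0.157) once each library's GC trend was removed. In MYC-OE the change was -0.14 (95% interval -0.30 to 0.01, adjusted p = 0.148), and it was called without 3xCTL replicate 2 (-0.19, adjusted p = 0.0385) and with the GC trend removed (-0.22, adjusted p = 0.0269). In 1xCtrl the 3 libraries had 12.9, 16.2 and 11.8 CPM, the highest being replicate 2. No single line differed from 1xCtrl past the threshold. Without that library CDKN2D was higher in SRSF7-OE by 0.36 (adjusted p = 0.00357), against 0.20 (adjusted p = 0.213) with it. Without 1xCtrl replicate 3 it was lower in SRSF3-OE (-0.31, adjusted p = 0.0492), against -0.16 (adjusted p = 0.274) with it.

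CDKN2B (ENSG00000147883.12, chromosome 9, 22002903 to 22009363, minus strand) had 0 counts in all 21 libraries, which allows at most 0.00947 to 0.0210 CPM per library (3 counts, counting error only). Its neighbour CDKN2A, the gene of p16 and p14ARF, also had 0 counts in all 21. Other genes nearby, chosen after their values were seen, had reads: MTAP had 5779 to 12655 counts, CDKN2B-AS1 306 to 872, DMRTA1 45 to 310, KLHL9 3087 to 5984 and ELAVL2 1131 to 2618. The genome of the line was not analysed here. Among the INK4 genes with counts, CDKN2D held 80.8% to 85.9% of the RNA per kilobase in the group means. The summed INK4 level was 10.6 ± 0.562 CPM per kilobase in 3xSR, below the 13.7 ± 0.928 of 3xCTL without overlap, while MYC-OE, at 12.9 to 13.1, overlapped it.

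Of the G1 cyclins, CCNE1 rose in 4 of the 5 test groups, most in SRSF3-OE and the group labelled SRSF2-OE. CCND2, the least abundant D-type cyclin, rose in 3xSR and SRSF3-OE from near 0. CCND1, by far the most abundant, fell slightly in 3xSR and MYC-OE and rose slightly in SRSF7-OE, and all 3 calls were lost when the GC trend was removed, with the log2 fold change at 0.06 in 3xSR and 0.09 in SRSF7-OE but at -0.32 in MYC-OE, against -0.26 with the trend left in. CCND3 rose in the libraries labelled SRSF2-OE and passed no test elsewhere against a control.

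CCNE1 (ENSG00000105173.14, chromosome 19, 29811898 to 29824308, plus strand), which activates CDK2 at the end of G1, had 47.2, 48.5 and 47.7 CPM in 3xCTL. It had 60.9, 58.3 and 60.7 CPM in the libraries labelled 3xSR and 57.8, 53.4 and 58.3 in MYC-OE. All 6 of these lay above the controls. The single plasmid controls had 47.8, 50.6 and 51.7 CPM, and SRSF7-OE 49.5, 54.8 and 52.9, overlapping it. Those labelled SRSF2-OE had 80.3, 80.7 and 84.1 CPM, and SRSF3-OE 80.2, 83.4 and 82.2. These 6 libraries overlapped each other and lay far above the rest.

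The log2 fold change of CCNE1 was 0.33 (SE 0.0504, adjusted p = 0.000466) in 3xSR and 0.24 (SE 0.0504, adjusted p = 0.00265) in MYC-OE. It was 0.71 (SE 0.0563) for SRSF2-OE-labelled libraries (adjusted p = 4.39e-06) and likewise 0.71 for SRSF3-OE (adjusted p = 1.68e-06). These 4 calls held under every alternative. SRSF7-OE gave 0.07, with a 95% interval of -0.06 to 0.19 (adjusted p = 0.476), and the SRSF2-OE-labelled and SRSF3-OE groups lay above it by 0.64 and 0.65 on the log2 scale (adjusted p = 8.15e-06 and 2.16e-06). CCNE2, the other E-type cyclin, fell by 0.30 in 3xSR (adjusted p = 0.00569) and by 0.58 in MYC-OE (adjusted p = 4.44e-05), opposite to CCNE1. In the libraries labelled SRSF2-OE it rose by 0.37 (adjusted p = 0.0229).

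CCND2 (ENSG00000118971.8, chromosome 12, 4273772 to 4305350, plus strand) had 30, 16 and 0 counts in 3xCTL (0.124, 0.0863 and 0 CPM). It had 260, 191 and 137 counts in 3xSR (1.43, 0.969 and 0.957 CPM) and 108, 48 and 57 in MYC-OE. The 3 groups did not overlap, in the order 3xCTL, MYC-OE, 3xSR, but neither step involving MYC-OE passed the threshold. By edgeR's quasi-likelihood test the adjusted p was 0.053 against 3xCTL. Against 3xSR the log2 difference was -1.85 (adjusted p = 0.0541). That difference was called with the replicate block (adjusted p = 0.0434) and with only the groups compared fitted (adjusted p = 0.000166). The single plasmid controls had 57, 104 and 116 counts, those labelled SRSF2-OE 108, 51 and 41, and SRSF7-OE 106, 108 and 145. SRSF3-OE alone was clear of these, with 451, 423 and 429 counts (2.29, 2.28 and 1.91 CPM). The 2 genes that overlap CCND2 exons, CCND2-AS1 and ENSG00000285901, had at most 7 and 3 counts.

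In 3xSR the log2 fold change of CCND2 was 3.93 (SE 0.731, adjusted p = 0.00427), and from 3.38 to 4.65 over the alternatives, all called. It was largest when 3xCTL replicate 1 was left out and smallest without 3xCTL replicate 3, the library at 0. In SRSF3-OE it was 2.23 (SE 0.292, adjusted p = 9.52e-05), called under every alternative. MYC-OE gave 2.08 (95% interval 0.44 to 3.73, adjusted p = 0.053), and it was called without 3xCTL replicate 1 (2.82, adjusted p = 0.034) or replicate 3 (1.54, adjusted p = 0.00864). Those labelled SRSF2-OE were at -0.57 (adjusted p = 0.189), or -1.08 without their replicate 1 (adjusted p = 0.0141). CCND2 still made up a small part of D-type cyclin RNA, 0.288% ± 0.0578 per kilobase in 3xSR.

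CCND1 (ENSG00000110092.3, chromosome 11, 69641087 to 69654474, plus strand), the main D-type cyclin of breast epithelium, had 290.0, 275.9 and 265.7 CPM in 3xCTL, 252.7, 235.5 and 236.9 in 3xSR, and 239.4, 229.8 and 224.5 in MYC-OE. Both test groups lay below the control and overlapped each other. The log2 fold change was -0.20 (SE 0.0521, adjusted p = 0.0136) in 3xSR and -0.26 (SE 0.0521, adjusted p = 0.00198) in MYC-OE. With the GC trend removed these became 0.06 (adjusted p = 0.773) and -0.32 (adjusted p = 0.0705), and the 3xSR call was also lost without 3xSR replicate 3 (adjusted p = 0.0664). CCND1 shares 497 of its 4830 exon bases with LTO1 on the opposite strand, which had 5722 to 11218 counts and fell in MYC-OE too, at -0.37 (adjusted p = 0.000145). Whether counting used strand is not given in the sources used here.

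Set against the single plasmid control, CCND1 moved in 1 group. It had 220.0, 219.5 and 219.0 CPM in 1xCtrl and 247.2, 259.8 and 269.6 in SRSF7-OE, with no overlap. SRSF7-OE was higher by 0.24 (SE 0.0547, adjusted p = 0.00996), or by 0.09 (adjusted p = 0.733) with the GC trend removed. That call was also lost without 1xCtrl replicate 1 (adjusted p = 0.0747) or 3 (0.0532) or SRSF7-OE replicate 3 (0.0778). The changes were 0.06 (95% interval -0.05 to 0.18) for SRSF2-OE-labelled libraries and 0.01 (-0.10 to 0.13) for SRSF3-OE.

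CCND3 (ENSG00000112576.12, chromosome 6, 41934933 to 42050357, minus strand) had 16.7, 21.8 and 17.7 CPM in 1xCtrl and 25.0, 23.0 and 26.8 in the libraries labelled SRSF2-OE. The groups did not overlap, and the highest control library was replicate 2. The log2 fold change was 0.41 (SE 0.0910, adjusted p = 0.00538), and the call was lost without 1xCtrl replicate 1 (adjusted p = 0.109) or 3 (0.0556) or SRSF2-OE replicate 1 (0.0745) or 3 (0.105). SRSF7-OE was at 0.23 (adjusted p = 0.11) and SRSF3-OE at 0.12 (adjusted p = 0.374). Without 1xCtrl replicate 2 both were called, at 0.36 (adjusted p = 0.00178) and 0.23 (adjusted p = 0.0215). In the first table the changes were -0.12 in 3xSR (95% interval -0.27 to 0.03) and -0.03 in MYC-OE (-0.18 to 0.12), and -0.18 in 3xSR without 3xCTL replicate 2 (adjusted p = 0.0274).

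**Figure D3:**
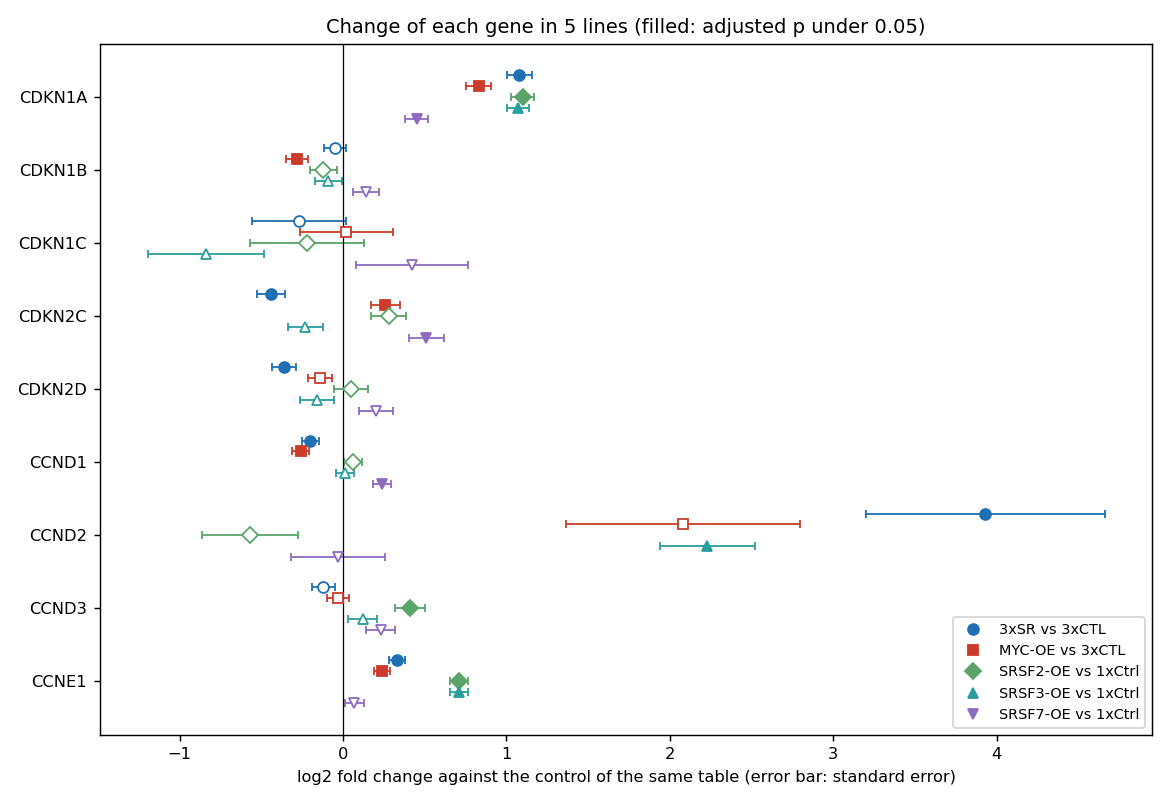
Log2 fold change of the 9 tested genes in each test group against the control of the same table, with the standard error as the bar. Filled symbols passed an adjusted p of 0.05. CDKN1A is filled in all 5 comparisons, and CCND2 reaches 3.93 in 3xSR with the widest error.

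Counted over the 9 genes that passed the filter on low counts (CDKN2B did not), 3 rose and 3 fell in 3xSR, where 29.0% of 23160 tested genes were called in either direction. Taken by direction, 15.3% of all genes were higher there and 13.7% lower. In MYC-OE 3 rose and 2 fell, against a background of 35.3% (18.0% higher, 17.3% lower). Each single line had 3 genes higher and 0 lower by edgeR's quasi-likelihood test. In those labelled SRSF2-OE they were CDKN1A, CCNE1 and CCND3, where 23.5% of 24362 genes were called (11.6% higher, 11.9% lower). In SRSF3-OE they were CDKN1A, CCNE1 and CCND2 (29.2%; 15.0% higher, 14.1% lower). In SRSF7-OE they were CDKN1A, CDKN2C and CCND1 (17.3%; 9.03% higher, 8.26% lower). DESeq2 also called 0 lower in each. At an unadjusted p under 0.05, edgeR had 0 lower in SRSF7-OE and in those labelled SRSF2-OE, and 1 in SRSF3-OE, CDKN1C (unadjusted p = 0.035). The median log2 fold change of the 9 was -0.12 in 3xSR, 0.02 in MYC-OE, 0.06 and 0.01 in the groups labelled SRSF2-OE and SRSF3-OE, and 0.23 in SRSF7-OE, with that of all genes between -0.03 and -0.00. The count of 0 lower did not hold throughout: CDKN2C and CDKN2D were lower in SRSF3-OE without 1xCtrl replicate 3, CDKN1C was lower there without 1xCtrl replicate 2 or SRSF3-OE replicate 2, CDKN2C was lower there with total counts alone, and CCND2 was lower in those labelled SRSF2-OE without their replicate 1. Without 1xCtrl replicate 2, 5 genes were called in SRSF7-OE and 5 in SRSF3-OE. Without 1xCtrl replicate 1 or SRSF7-OE replicate 3 the SRSF7-OE count was 1, and without 1xCtrl replicate 3 the SRSF3-OE count was 5.

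Levels per kilobase in 3xCTL give the order of abundance. CCND1 was highest at 57.4 ± 2.53 CPM per kilobase, followed by CCNE1 at 18.7 ± 0.247. CDKN2D (11.7 ± 0.838) and CDKN1B (10.4 ± 0.433) came next, and their nearest libraries both stood at 10.8. CDKN1A (5.43 ± 0.628) and CCND3 (4.10 ± 0.321) followed, then CDKN2C (2.01 ± 0.0984), CDKN1C (0.141 ± 0.0362) and CCND2 (0.00982 ± 0.00891). In the libraries labelled 3xSR the order differed. CDKN1A, at 11.4 ± 0.334, stood above CDKN1B (10.1 ± 0.334), which stood above CDKN2D (9.09 ± 0.542) without overlap, and CCND2 (0.156 ± 0.0374) overlapped CDKN1C (0.118 ± 0.0212).

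The triple line was then set against the single lines, each effect taken against its own control, in 1 fit over both tables. Each of the 3 single effects was taken against the same 1xCtrl libraries, so those libraries enter the sum 3 times. The comparison describes how the groups differ, and cannot say whether 3xSR carries the effect of 1 factor or of all 3 added. SRSF2 was not raised in 3xSR or in the libraries labelled SRSF2-OE, and it was lower in SRSF7-OE. SRSF3 and SRSF7 were higher in those labelled SRSF2-OE, and MYC was also higher in 3xSR. The CDKN1A effect in 3xSR differed from the SRSF2-OE-labelled effect by -0.02 (95% interval -0.24 to 0.20) and from SRSF3-OE by 0.02 (-0.20 to 0.24), and it was larger than in SRSF7-OE by 0.63 (adjusted p = 0.000172). Set against the sum of the 3 single effects it differed by -1.51 (SE 0.200, adjusted p = 3.24e-05). For CCNE1 the 3xSR effect was smaller than that of the groups labelled SRSF2-OE and SRSF3-OE, with a difference of -0.37 in each case (adjusted p = 0.000443 and 0.00067). It was larger than that of SRSF7-OE by 0.27 (adjusted p = 0.0064), and it differed from the sum by -1.13 (SE 0.128, adjusted p = 7.05e-06). All of these calls for CDKN1A and CCNE1 held under every alternative. The 2 tables were deposited apart, with separate controls, and what else differs between them cannot be told apart from the comparison.

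The other genes differed from the single lines in other ways. The CDKN2C effect in 3xSR differed from the SRSF2-OE-labelled effect by -0.71 (adjusted p = 0.000934) and from SRSF7-OE by -0.94 (adjusted p = 5.5e-05), and from SRSF3-OE by -0.19 (95% interval -0.48 to 0.10). The CCND2 effect in 3xSR exceeded that of the SRSF2-OE-labelled libraries by 4.51 (adjusted p = 0.000319) and that of SRSF7-OE by 3.96 (adjusted p = 0.000845). Its difference from SRSF3-OE, 1.71, had an interval of 0.16 to 3.25 and an adjusted p of 0.123. The size of these CCND2 differences depends on the control levels, a mean of 0.0703 CPM in 3xCTL and 0.458 CPM in 1xCtrl. CDKN1B showed no difference past the threshold, at 0.08, 0.05 and -0.18 in turn. Of the 9 genes, 6 differed from the SRSF2-OE-labelled effect, 1 above and 5 below it (background 21.9% of 25013 genes, 13.3% above and 8.53% below). That count was 4 to 6 over the alternatives. With the GC trend removed, CDKN2D (-0.26, adjusted p = 0.101) and CCND1 (-0.05, adjusted p = 0.904) were lost. CDKN2D was also lost with total counts alone (adjusted p = 0.0554). It was lost too without 3xCTL replicate 1 or 3, 3xSR replicate 3, 1xCtrl replicate 1 or 3, or SRSF2-OE replicate 1 or 2. From SRSF3-OE 1 differed, CCNE1, below it (17.8%, 7.02% below). From SRSF7-OE 7 differed, 3 above and 4 below (24.6%, 13.6% above and 10.9% below). That count was 4 to 7 over the alternatives. With the GC trend removed, CCND1 (-0.05, adjusted p = 0.894), CDKN2D (-0.25, adjusted p = 0.114) and CCND3 (-0.11, adjusted p = 0.418) were lost. CDKN1B was then called (-0.28, adjusted p = 0.0434). CCND3 was also lost with the replicate block and without 3xCTL or 1xCtrl replicate 1 or 3, any 3xSR library, or SRSF7-OE replicate 3. From the sum 5 differed, all 5 below it (19.9%, 8.59% below). Over all genes the median departure from the sum was 0.14, and it moved with the processing from 0.03 (DESeq2) to 0.26 (total counts alone). Without 1xCtrl replicate 2 the count against SRSF3-OE was 3, with CDKN2D (-0.34, adjusted p = 0.0172) and CCND3 (-0.36, adjusted p = 0.00871) added. It was 2 without 3xCTL replicate 3, 3xSR replicate 1 or SRSF3-OE replicate 2. The count below the sum was 3 without 1xCtrl replicate 1 or 3.

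**Figure D4:**
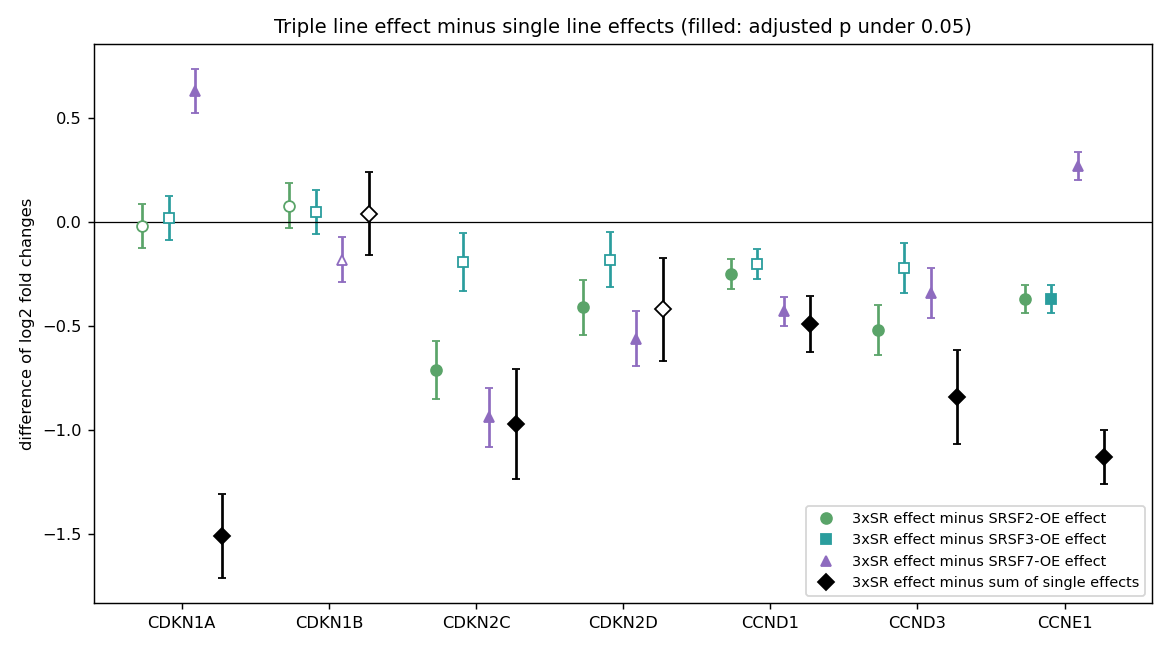
Difference between the 3xSR log2 fold change and that of each single line, or the sum of the 3, for 7 genes; CCND2 and CDKN1C, with few counts and wide errors, are left out. Error bars are standard errors and filled symbols passed an adjusted p of 0.05. CDKN1A and CCNE1 lie furthest below the sum, at -1.51 and -1.13.

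Test groups of the same table were also tested against each other. Between MYC-OE and 3xSR, 4 of 9 genes differed (background 34.9%, 17.3% higher and 17.6% lower): CDKN2C and CDKN2D were higher in MYC-OE, and CDKN1A and CDKN1B lower. Of these only the CDKN2C call held under every alternative, and the count was 1 without 3xSR replicate 1 or MYC-OE replicate 3, and 2 without 3xSR replicate 3 or MYC-OE replicate 1 or 2. Between SRSF3-OE and SRSF7-OE 8 of 9 differed (35.2%; 17.8% higher, 17.3% lower), with CDKN1A, CCNE1 and CCND2 higher in SRSF3-OE and the other 5 lower. With the GC trend removed 5 were called, CCND1 turned to 0.09 (adjusted p = 0.698) and CDKN2D went from -0.36 to -0.07 (adjusted p = 0.53), and 5 were called without SRSF3-OE replicate 3 or SRSF7-OE replicate 3. Between the libraries labelled SRSF2-OE and SRSF3-OE 3 of 9 differed (26.8%, with 12.6% higher and 14.1% lower): CDKN2C, CCND3 and CCND2, the last by -2.81 (adjusted p = 2.41e-05). The CCND3 call (0.29, adjusted p = 0.03) was lost under 10 of 14 alternatives. The count was 2 when any single library of either group was left out. CDKN1A and CCNE1 differed there by 0.03 (95% interval -0.12 to 0.18) and -0.00 (-0.12 to 0.12). Between those labelled SRSF2-OE and SRSF7-OE 4 of 9 differed (24.2%; 11.5% higher, 12.8% lower), and 2 without SRSF2-OE replicate 2 or 3 or SRSF7-OE replicate 3.

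Partners of these genes in the G1/S transition were taken from a list of 44, of which 43 were tested (CDKN2A was at 0). In 3xSR 8 rose and 9 fell, and in MYC-OE 8 rose and 13 fell. The libraries labelled SRSF2-OE had 11 up and 3 down, SRSF3-OE had 17 up and 3 down, and SRSF7-OE had 4 up and 3 down. Over all genes tested, the shares higher and lower were 15.3% and 13.7% in 3xSR and 18.0% and 17.3% in MYC-OE. They were 11.6% and 11.9% for SRSF2-OE, 15.0% and 14.1% for SRSF3-OE, and 9.03% and 8.26% for SRSF7-OE. The 8 of 43 that rose in MYC-OE, and the 4 and 3 of 43 in SRSF7-OE, were close to the background. The 8 that rose in 3xSR were not far above it. The list's medians were 0.04, -0.04, 0.09, 0.20 and 0.05 in the order of those shares. Among the kinases, CDK2 passed no test against a control. CDK4 fell by 0.23 (log2) in 3xSR (adjusted p = 0.00193) and rose by 0.22 in the libraries labelled SRSF2-OE (adjusted p = 0.0385) and by 0.31 in SRSF7-OE (adjusted p = 0.00941). CDK6 rose by 0.28 in 3xSR (adjusted p = 0.00571) and by 0.43 in SRSF3-OE (adjusted p = 0.00172). E2F2 was lower in all 5 groups, with log2 fold changes from -0.20 (SRSF7-OE) to -0.46 (SRSF3-OE). E2F1 was at -0.42 in 3xSR, -0.31 in MYC-OE and -0.41 in SRSF3-OE, all called. TFDP2, a dimer partner of the E2F proteins, rose by 0.88 in 3xSR, 0.84 in MYC-OE and 0.65 in SRSF3-OE. ZBTB17, the partner of MYC at repressed promoters, passed no test, with changes from -0.09 to 0.21. The counts of genes that rose moved with single libraries: 3xSR gave 16 without 3xCTL replicate 2 and 5 without 3xCTL replicate 1 or 3 or 3xSR replicate 1, those labelled SRSF2-OE gave 4 without 1xCtrl replicate 1, 5 and 6 without SRSF2-OE replicates 1 and 2 and 7 without 1xCtrl replicate 3, SRSF3-OE gave 10 without 1xCtrl replicate 1 or SRSF3-OE replicate 3 and 11 without SRSF3-OE replicate 1, and SRSF7-OE gave 9 without 1xCtrl replicate 2. Of the counts that fell, 3xSR gave 5 without 3xSR replicate 3, those labelled SRSF2-OE 6 without 1xCtrl replicate 2 or SRSF2-OE replicate 1, SRSF3-OE 5 without 1xCtrl replicate 2, and SRSF7-OE 6 without 1xCtrl replicate 2 and 1 without SRSF7-OE replicate 3. With the GC trend removed SRSF7-OE had 13 up and 6 down, with total counts alone SRSF3-OE had 9 up and 5 down, and with only the groups compared fitted 9 rose in SRSF3-OE and 5 in those labelled SRSF2-OE, while 5 fell in 3xSR.

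Targets of E2F in S phase, the genes that CDK activity releases, were read from a list of 30, of which 2 (CCNE2 and E2F1) were also in the G1/S list. In 3xSR 1 rose and 15 fell, with TK1 at -0.60 (adjusted p = 0.00473) and MCM5 at -0.53 (adjusted p = 0.00043), and the list's median was -0.19 against -0.00 for all genes. In MYC-OE 2 rose and 10 fell, with CCNE2 and DNMT1 (-0.50, adjusted p = 2.39e-05) lowest, and the median was -0.07. Of the list, 9 rose and 2 fell in SRSF2-OE-labelled libraries, 10 rose and 3 fell in SRSF3-OE and 9 rose in SRSF7-OE, with MCM2 at 0.42 (adjusted p = 0.0309), 0.47 (0.0154) and 0.51 (0.0173). Over all genes tested, 15.3% were higher and 13.7% lower in 3xSR, and 18.0% and 17.3% in MYC-OE. In the second table these shares were 11.6% and 11.9% for SRSF2-OE, 15.0% and 14.1% for SRSF3-OE, and 9.03% and 8.26% for SRSF7-OE. The rises on the E2F list depended on libraries and scaling: with 1xCtrl replicate 2 left out they were 14 for those labelled SRSF2-OE, 11 for SRSF3-OE and 14 for SRSF7-OE. Without 1xCtrl replicate 1 they were 4, 3 and 5, without 1xCtrl replicate 3 they were 5 in each of the first 2 groups, without SRSF2-OE replicate 1, 2 or 3 they were 4, without SRSF3-OE replicates 1 and 3 they were 3 and 4, and without SRSF7-OE replicate 1 or 3 they were 5. With library sizes scaled by total counts alone, 5 rose in those labelled SRSF2-OE and 0 in SRSF3-OE. With only the groups compared fitted, the rises were 4 for SRSF2-OE, 1 for SRSF3-OE and 2 for SRSF7-OE, and with the GC trend removed 14 rose in SRSF7-OE. Calls over all genes in SRSF7-OE moved too, from 4214 to 7321 without 1xCtrl replicate 2 and to 6928 with the GC trend removed. On the E2F list, the falls in 3xSR ranged from 12 to 22 over the alternatives and those in MYC-OE from 7 to 12, while the few rises ranged from 0 to 2 and from 1 to 4.

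Other known targets of p53, which induces CDKN1A, had calls in both directions. Of 25 on the list, 6 rose and 7 fell in 3xSR (15.3% and 13.7% of all genes) and 5 rose and 6 fell in MYC-OE (18.0% and 17.3% of all genes), the 5 being close to the background. The libraries labelled SRSF2-OE had 6 up and 3 down (11.6% and 11.9% of all genes). SRSF3-OE had 5 up and 7 down (15.0% and 14.1%), and SRSF7-OE had 3 up and 1 down (9.03% and 8.26%). The 3 down in those labelled SRSF2-OE were close to the background. In 3xSR ZMAT3 rose by 0.59 (adjusted p = 0.000711) and TP53I3 fell by 0.70 (adjusted p = 0.000202), and in SRSF3-OE GADD45A rose by 0.69 (adjusted p = 5.74e-05) and GDF15 fell by 1.79 (adjusted p = 0.00134). The list's medians lay between -0.10 and 0.07. Left-out libraries took the 7 falls in 3xSR to 4 (3xSR replicate 1), the 6 in MYC-OE to 3 (MYC-OE replicate 1 or 3), the 7 in SRSF3-OE to 11 (1xCtrl replicate 2), and in SRSF7-OE the rises to 7 and the falls to 5 (1xCtrl replicate 2) and the rises to 1 (any other library of the 2 groups). In those labelled SRSF2-OE the rises went to 2 without 1xCtrl replicate 1 and 3 without SRSF2-OE replicate 2, and the falls to 6 without 1xCtrl replicate 2 and 5 without SRSF2-OE replicate 2. With the GC trend removed 7 fell there, and 6 rose and 4 fell in SRSF7-OE.

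Of 20 mitotic genes, 4 rose and 4 fell in 3xSR and 9 rose and 1 fell in MYC-OE (18.0% higher and 17.3% lower over all genes, against 15.3% and 13.7% in 3xSR), where AURKA rose by 0.67 (adjusted p = 3.01e-06) and UBE2C by 0.63 (adjusted p = 2.16e-06). In 3xSR AURKA rose by 0.50 (adjusted p = 4.41e-05) and NUSAP1 fell by 0.43 (adjusted p = 0.00059), and without 3xCTL replicate 1 or 3 or 3xSR replicate 1 or 2 only 2 rose. The falls in 3xSR were 9 with the GC trend removed, and 8 with the replicate block as well. The SRSF2-OE-labelled libraries had 6 up (10 with the GC trend removed), SRSF3-OE 5 up and 1 down, and SRSF7-OE 3 up and 1 down. Over all genes the shares higher and lower were 11.6% and 11.9% for SRSF2-OE, 15.0% and 14.1% for SRSF3-OE, and 9.03% and 8.26% for SRSF7-OE. In those labelled SRSF2-OE AURKA rose by 0.51 (adjusted p = 0.000289) and in SRSF3-OE by 0.45 (adjusted p = 0.000425). The 5 rises in SRSF3-OE became 1 without 1xCtrl replicate 1 or SRSF3-OE replicate 1 or 3, 2 without 1xCtrl replicate 3 and 3 without SRSF3-OE replicate 2, and the fall 2 without SRSF3-OE replicate 1. In SRSF7-OE 5 rose and 5 fell without 1xCtrl replicate 2, 1 rose and 3 fell without SRSF7-OE replicate 2, and 3 fell without SRSF7-OE replicate 1. The fall in MYC-OE became 2 without 3xCTL replicate 2 or 3.

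**Figure D5:**
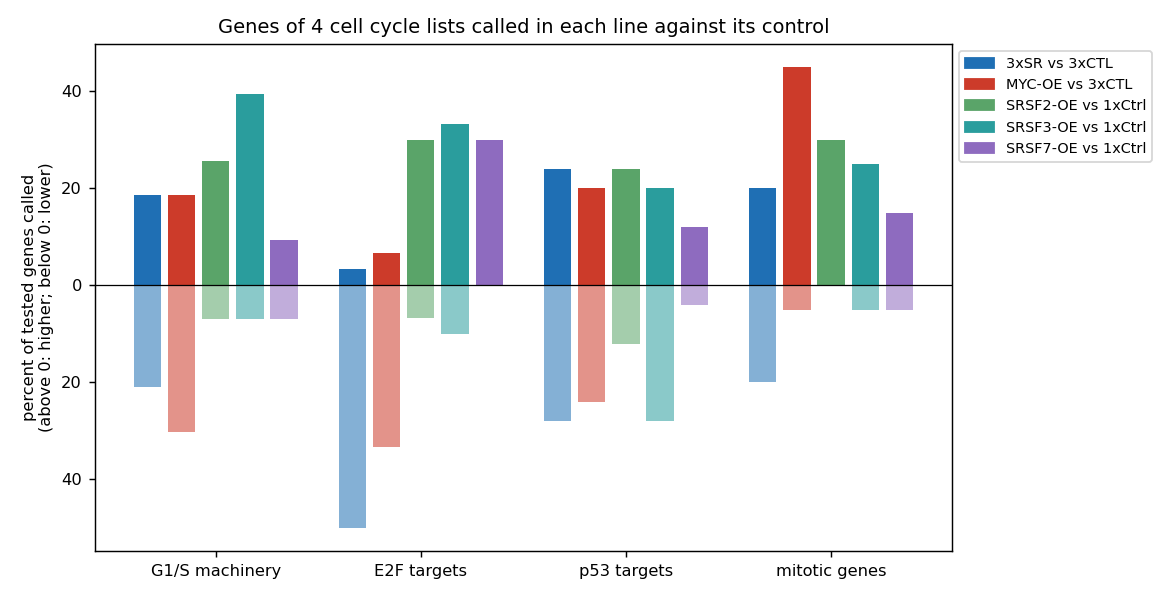
Share of the tested genes of 4 lists called higher (above 0) or lower (below 0) in each test group against its own control, as a percentage, by edgeR's quasi-likelihood test at an adjusted p of 0.05. E2F targets lie mostly below 0 in 3xSR (15 of 30) and MYC-OE (10 of 30) and above 0 in the groups of the second table, a count that is 0 in SRSF3-OE when libraries are scaled by total counts alone. Over all genes, 13.7% were lower in 3xSR and 17.3% in MYC-OE. The shares higher were 11.6% for SRSF2-OE, 15.0% for SRSF3-OE and 9.03% for SRSF7-OE.

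Genes whose pattern was most like that of the 3 genes with the largest changes were found by the correlation of log2 CPM, centred within each table, over 21 libraries and 11120 genes. This is a description over libraries that share groups and controls. FOSL1 (r = 0.97), KRT6A (0.94) and ANTXR2 (0.937) were nearest to CDKN1A. HK2 (0.975), ODC1 (0.962) and SMURF2 (0.96) were nearest to CCNE1, and IL1A (0.917), FHL1 (0.912) and EPB41L5 (0.908) to CCND2. Between the genes described here, CDKN1A and CCNE1 had r = 0.88 and CDKN2C and CDKN2D had 0.81, while CDKN1A and CDKN1B had -0.48.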

How the data were processed

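Whole-number counts per gene of 21 HCC1806 libraries were used as the authors deposited them, in 2 tables of 60668 versioned Ensembl identifiers. Per the labels' protocols, DNase-treated, polyA-selected RNA was made into stranded libraries and sequenced as read pairs on a NovaSeq. Per the submitters' processing notes, Trimmomatic 0.39, STAR, StringTie 2.1.3b and the build GRCh38.p13 were used. Their order, the annotation release, the strand setting and whether a pair counts once are not given in the sources used here. Exons, positions and GC content came from GENCODE release 29 (GRCh38), matched by identifier, which may not be the release counted.

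Counts were analysed with edgeR 4.0.16 in R 4.3.3. The filter filterByExpr required a count of 10 and a total of 15, libraries were scaled by TMM, and the quasi-likelihood F test was run on each gene, with p-values adjusted by Benjamini-Hochberg over all genes tested, at a threshold of 0.05 in either direction. Each table had 1 fit over its groups without a replicate block, and differences between effects used 1 fit over both tables. Scripts were tested on simulated data with 200 genes changed 2-fold. The test recovered 61.5% of them for 3xSR and 54.5% for SRSF3-OE, and 98.1% and 93.5% of those at 5 CPM or more. For 3xSR minus the sum it recovered 12.5%, and 30.1% at 5 CPM or more, so changes of that size can be missed there. The share of calls that were false was 8.89%, 6.03% and 10.7% in turn. With no gene changed, 0 were called for 3xSR. The genes, lists, naming rule and alternatives were chosen with earlier results of these data known. Named are the 10 genes, the 4 targeted genes, genes of the G1/S list, and of each other list up to 2 called genes at each end with a mean of at least 1 CPM. Alternatives were RLE or total-count scaling, no filter, DESeq2 1.42.0, the replicate block, removal of each library's GC trend over 50 bins with or without the block, only the groups compared, and each library left out.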

Additional observations from a re-analysis of the deposited data

How the results depend on the processing

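Over the 117 tests of the 9 genes, 1872 alternative values were computed. Of these 1624 kept direction and side of the threshold, 112 were no longer called, 39 became called, and 8 changed sign where one of the values was called. Another 89, not called either way, also changed sign, to at most 0.19 in size outside CDKN1C and CCND2. Of 58 calls, 33 held throughout. Removing the GC trend, without and with the replicate block, turned CCND1 in 3xSR to 0.06 and 0.06, CDKN2D between MYC-OE and 3xSR to -0.07 and -0.07, MYC in that comparison to -0.05 and -0.05, CCND1 between SRSF2-OE and SRSF7-OE to 0.01 and 0.00 and between SRSF3-OE and SRSF7-OE to 0.09 and 0.09, CDC34 in 3xSR to 0.21 and 0.22, and, with the block, FBXO31 in 3xSR to 0.13. The cause was not tested.

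Counts of the 9 genes called moved over 1.5-fold as follows. SRSF3-OE against SRSF7-OE fell from 8 to 5 (GC) and 5 (GC and block), the 3xSR effect minus SRSF7-OE from 7 to 4 (GC and block), and that minus SRSF3-OE rose from 1 to 2 (RLE) and 3 (DESeq2). Leaving out single libraries gave 1 to 3 (MYC-OE against 3xSR), 3 to 5 (SRSF3-OE), 1 to 5 (SRSF7-OE), 2 to 5 (SRSF2-OE against SRSF7-OE), 5 to 8 (SRSF3-OE against SRSF7-OE), 1 to 3 (3xSR minus SRSF3-OE) and 3 to 6 (3xSR minus the sum). Over all genes, SRSF7-OE had 4214 calls, 6928 with GC removed, 6479 with GC removed and the block, 2251 with only its groups fitted, and 2685 (without SRSF7-OE replicate 3) to 7321 (without 1xCtrl replicate 2) when a library was left out. The 3xSR effect minus SRSF3-OE had 4453, then 7056 (GC) and 7016 (GC and block), and minus the sum 4977, or 3240 (without 1xCtrl replicate 1) to 6446 when a library was left out.

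The replicate numbers do not pair the libraries: the deviations of same-numbered libraries correlated at -0.107 to 0.0118 on average. With the replicate block, SRSF2-OE against SRSF7-OE gave 2 called genes of the 9 in place of 4. Counts over all genes became 6145 in 3xSR (6727 without it), 7767 in MYC-OE (8182), 4934 for those labelled SRSF2-OE (5733), 6343 for SRSF3-OE (7108) and 3362 for SRSF7-OE (4214). Scaled by total counts alone, 36.7% of calls in those labelled SRSF2-OE were higher (49.2% with TMM), 32.1% in SRSF3-OE (51.6%, with the median of all genes at -0.14 against -0.03), 36.6% for SRSF2-OE against SRSF7-OE (47.3%), 35.3% for SRSF3-OE against SRSF7-OE (50.7%), 76.3% for 3xSR minus SRSF3-OE (60.6%) and 69.9% for 3xSR minus the sum (56.8%), and removing the GC trend gave 48.7% in that minus SRSF3-OE. CDKN1C and CCND2 rest on few counts, and differences within their intervals were not detectable at this depth.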
